A study of Mus musculus with 7 samples.

Results

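The genes described here are 32 type I interferon-stimulated genes, the transcripts that cells switch on when interferon alpha or beta binds its receptor. They were taken by name from the deposited expression table and the values of all transcript rows of a gene were summed, which gave a value for 32 of 32 genes among 56422 gene symbols in all. The samples are labelled as CD8+ T cells taken from the ascites of mice with peritoneal metastasis. In the control group, 4 libraries came from mice with no treatment, and in the treated group 3 libraries came from mice given propionate and butyrate, short-chain fatty acids that gut bacteria release. The labels give no strain, age, dose, time or tumour line, and do not state whether the libraries are separate animals. The p-values therefore reflect library-to-library spread, which may be technical. The wider study is about mannose, gut metabolites and anti-PD-1 treatment of ovarian cancer, and the comparison is of transcripts between the treated and control libraries. Despite the label, the libraries also carry transcripts that mark other cell types, given below. The values are therefore not those of CD8+ T cells alone.

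Type I interferons bind a receptor made of IFNAR1 and IFNAR2. The kinases JAK1 and TYK2 then activate STAT proteins, STAT2 among them, which join IRF9 and bind a DNA element called the interferon-stimulated response element (ISRE). The genes so induced encode sensors of foreign RNA and DNA, proteins that block viral replication, and brakes that end the signal. T cells, macrophages and epithelial cells all carry this response, so in a bulk library fewer cells of a type and less RNA per cell cannot be told apart.

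The element that defines the class could be read in part of the genes. RefSeq promoter windows (build GRCm38.p6, from 250 bases before to 50 bases after each annotated start) matched 22 members by symbol and 1, Rigi, by the older symbol of the same gene, in 28 windows. The ISRE core GAAANNGAAA, searched on both strands, was present in 14 of these 28 windows, or 50%, and in 3.443% of all 32851 windows. It was found for 13 of the 23 matched genes: Stat2, Isg15, Rigi, Ifih1, Ddx60, Eif2ak2, Ifit1, Ifit3, Ifit3b, Rsad2, Ifitm3, Bst2 and Trim30a. The core GAS letters TTCNNNGAA, which read the same on both strands and mark sites of interferon gamma signalling, were in 6 of the 28 windows (21.429%) and in 8.298% of all windows. A match is a run of letters and was not tested for binding, and these genome positions belong to a build other than that of the expression table. A window without a match does not show that the gene lacks the element, since only these windows were read.

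The 200 bases before the start are shown 5′ to 3′ for 5 genes. Isg15 has the densest run of cores, Ifit1 has a pair near the start, and Ifit3 and Ifit3b are close copies. Isg20, the gene with the lowest estimate described below, is among the 10 matched genes without a core, and has none in any of its 3 windows. Capitals mark the ISRE core or its reverse complement, and in Isg20 the GAS core.
Isg15 (chr4:156200819-156201018, minus strand): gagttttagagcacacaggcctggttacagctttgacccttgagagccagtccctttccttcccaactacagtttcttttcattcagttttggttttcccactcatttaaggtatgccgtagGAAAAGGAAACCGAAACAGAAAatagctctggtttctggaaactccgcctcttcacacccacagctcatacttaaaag
Ifit1 (chr19:34640689-34640888, plus strand): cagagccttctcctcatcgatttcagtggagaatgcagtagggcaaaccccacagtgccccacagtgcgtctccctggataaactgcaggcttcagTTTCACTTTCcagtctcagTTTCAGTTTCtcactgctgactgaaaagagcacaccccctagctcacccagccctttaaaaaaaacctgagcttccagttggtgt
Ifit3 (chr19:34583329-34583528, plus strand): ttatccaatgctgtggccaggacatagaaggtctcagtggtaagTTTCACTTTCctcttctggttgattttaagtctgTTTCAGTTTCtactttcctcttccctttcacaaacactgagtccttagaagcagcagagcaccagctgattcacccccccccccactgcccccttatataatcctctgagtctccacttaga
Ifit3b (chr19:34607757-34607956, plus strand): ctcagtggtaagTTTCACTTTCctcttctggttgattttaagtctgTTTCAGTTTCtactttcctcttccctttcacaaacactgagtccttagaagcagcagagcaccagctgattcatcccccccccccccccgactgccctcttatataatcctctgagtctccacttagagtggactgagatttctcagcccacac
Isg20 (chr7:78913224-78913423, plus strand): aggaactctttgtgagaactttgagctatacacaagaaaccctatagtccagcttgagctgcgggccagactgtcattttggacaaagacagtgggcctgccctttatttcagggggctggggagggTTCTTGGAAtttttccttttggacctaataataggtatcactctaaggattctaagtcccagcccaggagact
In Isg15, 3 overlapping cores begin 78, 72 and 66 bases before the start. Ifit1 holds cores at 104 and 85 bases. Ifit3 and Ifit3b each hold 2 cores that begin 34 bases apart, inside a stretch of 169 bases that the 2 windows share letter for letter. In Ifitm3 both cores lie after the start, from transcribed positions 3 and 20.

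Expression was given as TPM, a transcript level corrected for length whose sum is fixed in every library, so depth is unknown and no detection limit can be given. In the control libraries the summed TPM of 18 macrophage and monocyte markers was 6438 to 15556 and that of 17 T cell identity genes 144 to 251. The same sums in the treated libraries were 3623 to 4415 for macrophages and 705 to 2977 for T cells, with all 18 and all 17 genes above 0 in some library. Apoe, which other cells also express, made up much of the macrophage sum. Without it the sums were 2544 to 7088 in control and 1951 to 2833 in treated libraries and overlapped, and of the 18 markers 3 fell and 15 were not called (limma). Summed epithelium and mesothelium markers were 2349 to 2812 in control and 885 to 1686 in treated libraries, with all 15 above 0 in some library. Fibroblast marker sums were 390 to 445 in control and 166 to 326 in treated libraries, and endothelium sums 82.56 to 96.05 and 39.75 to 76.46. The sum of genes listed as natural killer markers was 6.64 to 10.07 in control and 30.24 to 81.78 in treated libraries. Sums for B cells, dendritic cells and neutrophils overlapped between the groups. Of 8 markers of plasmacytoid dendritic cells, strong interferon producers, all were above 0 somewhere and Bst2, itself a member, made up most of the sum. Without Bst2 the sum of the other 7 was 20.5 to 40.04 TPM in control and 36.1 to 58.4 TPM in treated libraries. Of the 8 markers 6 were tested, Bst2 among them, and 3, Siglech, Ccr9 and Pacsin1, rose (limma). Those 3 were low, with control means of 1.09, 0.61 and 0.90 TPM. The part of this cell mix in the results below was not tested. Some values below come from a fit with the macrophage level, the deposited sum with Apoe, as a covariate. That level was lower in every treated library than in every control library, so such a fit cannot separate it from the treatment. One library stood apart. The third treated library, whose column carries a number that no treated sample has, held 52.3% of its TPM in mitochondrial genes and 5 Gm-named genes above 1% of TPM that are taken here as mitochondrial copies, against 21.8% to 28.8% in the other 6 libraries. Values after those genes were removed and each library was rescaled are therefore given beside many of the deposited ones below. On that scale the macrophage sum of the third treated library, 9312, lies among the controls at 8531 to 20001.

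The interferon-stimulated genes as a group differed little between treated and control libraries. Of the 32 genes, 2 fell, Isg20, an exonuclease that degrades single-stranded RNA, and Ifitm3, a membrane protein that blocks viral entry, and 0 rose (limma, adjusted p under 0.05). At an unadjusted p under 0.05 (limma) the deposited scale gave 6 lower and 0 higher of 32. Beside these stood 3539 lower and 1028 higher of all 14967 genes tested. That lack of higher members depended on the scale and the third treated library. After rescaling the member counts were 6 lower and 6 higher, and without that library 5 lower and 5 higher. As deposited, 7.59% of all 14967 genes tested fell and 4.3% rose at the adjusted threshold. The share of members that fell, 2 of 32, was thus near that of all genes. The median log2 fold change was -0.13 for the members and -0.24 for all tested genes. In 5 of the 32 every treated library lay below every control library, against 25.7% of all genes, and in 0 of the 32 every treated library lay above, against 4.82%. The 17 T cell identity genes, all of which rose in the same libraries, had a median of 2.78. For 26 of the 32 members the 95% confidence interval of the log2 fold change lay between -1 and 1.

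**Figure D1:**
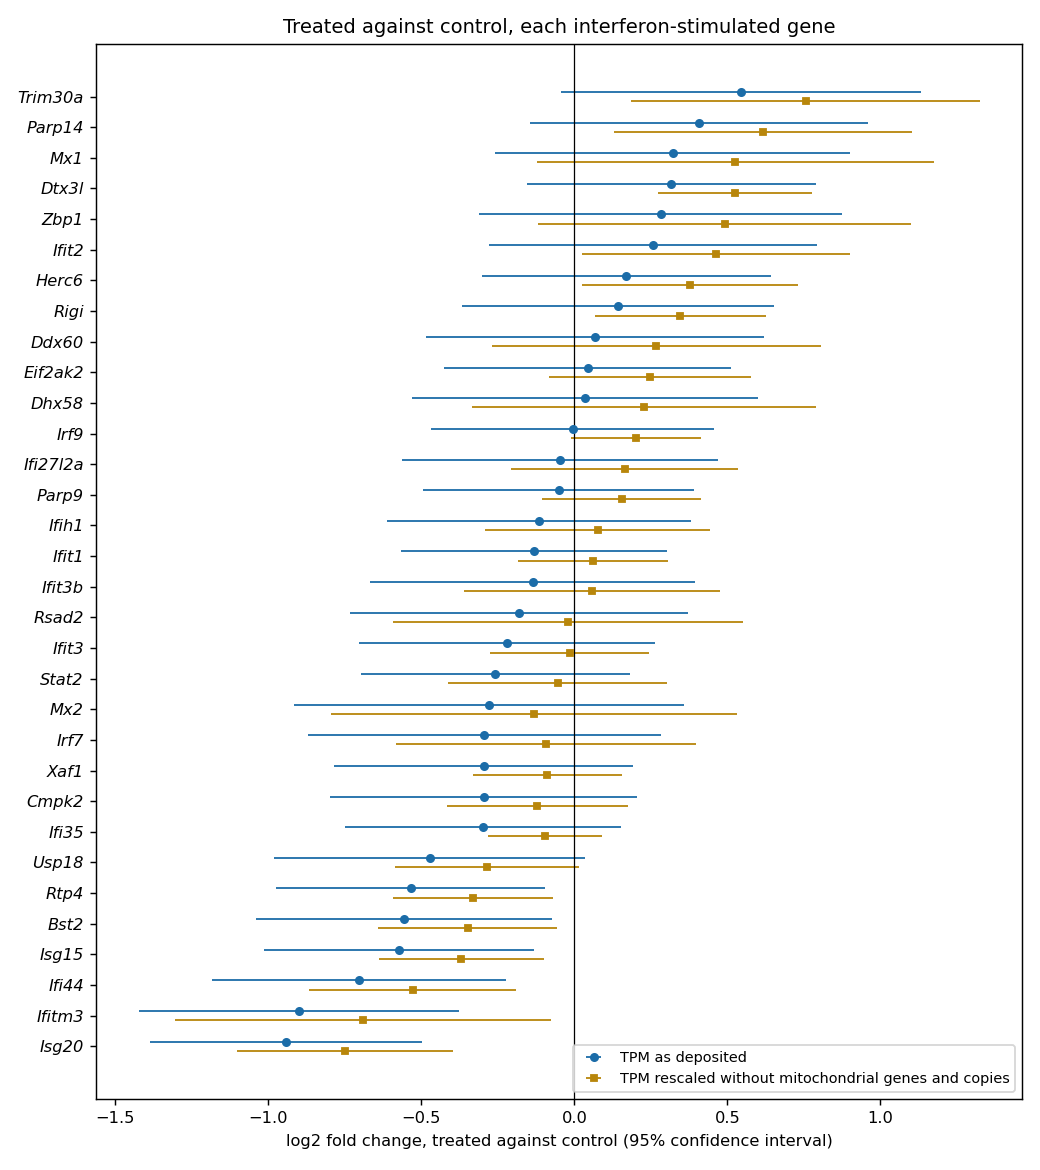
Log2 fold change of each of the 32 members, treated (3 libraries) against control (4 libraries), with 95% confidence intervals from limma, on TPM as deposited (circles) and on TPM rescaled without mitochondrial genes and copies (squares). Isg20 and Ifitm3 lie lowest at -0.94 and -0.90, Trim30a highest at 0.54, and every rescaled estimate lies to the right of the deposited one.

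The scale set the sign of many estimates. On the deposited scale 21 of 32 member estimates were below 0, as were 73.4% of those of all tested genes. Rescaling moved the median of the genes tested before from -0.24 to -0.06 and that of the members from -0.13 to 0.06, and 17 of 32 member estimates were then above 0. On that scale 2 members fell, Isg20 and Ifi44, and 1 rose, Dtx3l. Of all genes, 1276 rose and 1368 fell after rescaling (15895 tested), against 643 and 1136 before (14967 tested). Of the 14967 genes tested before, 1176 rose and 1356 fell after rescaling. The library that carried the shift was the third treated one. As deposited, it held the lowest value of 22 of the 32 genes, and its median over the members was -0.50 relative to the control mean, beside -0.58 over all tested genes. The same medians for treated replicates 1 and 2 were -0.02 and 0.06, within the control range of -0.09 to 0.09. After rescaling the third library held the lowest value of 4 members, and its median was 0.10.

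**Figure D2:**
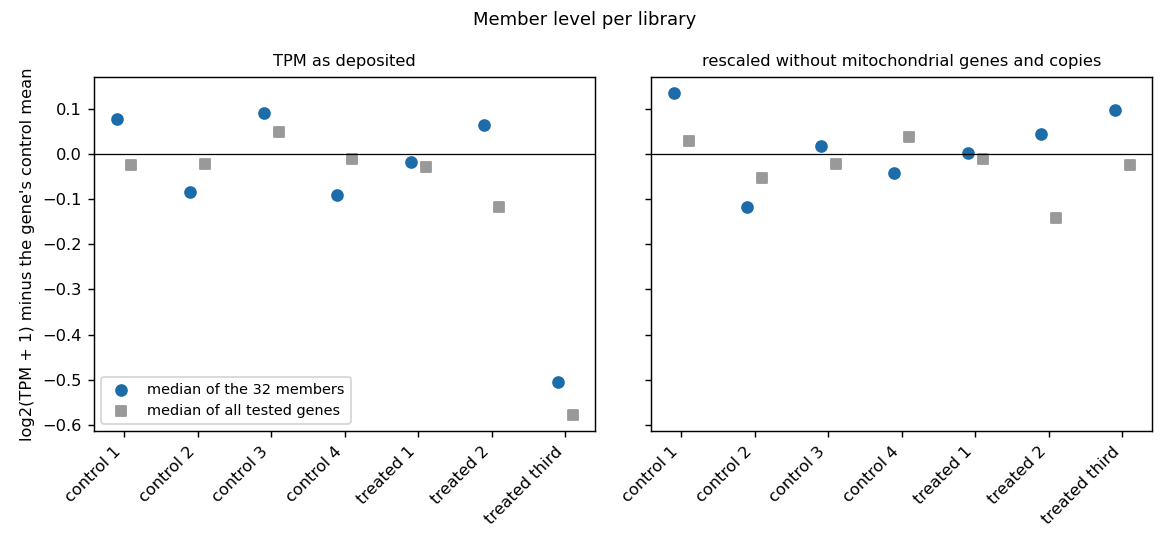
Median over the 32 members (circles) and over all tested genes (squares) of log2(TPM + 1) minus the control mean of each gene, for each of the 7 libraries, on the deposited scale (left) and after rescaling (right). On the deposited scale the third treated library lies lowest, with members at -0.50 and all genes at -0.58, and after rescaling its member median is 0.10.

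Isg20 had the largest difference of the members on the deposited scale, while after rescaling Trim30a, at 0.76 and not called, was as far from 0. Its TPM was 41.1, 39.1, 29.1 and 32.1 in control replicates 1 to 4 and 18.1, 21.3 and 14.5 in treated replicates 1 and 2 and the third treated library. Every treated value lay below every control value, and treated replicates 1 and 2 were low as well as the third library. The log2 fold change was -0.94 (SE 0.21, limma adjusted p = 0.0103), or 0.521-fold. After rescaling it was -0.75 (adjusted p = 0.0184), and with the third treated library left out -0.80 (adjusted p = 0.032). The call was lost with the macrophage marker level as a covariate (-1.26, adjusted p = 0.0598), over replicates 1 and 2 with the replicate number as a block (-0.99, adjusted p = 0.0518) and with no filter on low values (-0.94, adjusted p = 0.0716). Isg20 has 6 transcript rows, and 1 of them held 86.6% of its TPM in control and 79.2% in treated libraries on average.

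Ifitm3 was the most abundant member in the control libraries. Its TPM was 508, 474, 874 and 427 in the control libraries and 277, 288 and 314 in the treated ones, for a log2 fold change of -0.90 (SE 0.24, limma adjusted p = 0.0294). Control replicate 3 was the highest and also had the highest macrophage marker sum, with and without Apoe (15556 TPM against 6438 to 7320 in the other controls with it). Without that library the difference was -0.68 (adjusted p = 0.0932), and with the macrophage marker level as a covariate it was -0.16 (adjusted p = 0.886). The call was also lost without any 1 of the treated libraries (adjusted p = 0.0569 without replicate 1, 0.0543 without replicate 2 and 0.0711 without the third). After rescaling the third treated library stood at 662 TPM, among the controls at 601 to 1124, and the difference was -0.69 (adjusted p = 0.111). Ifitm3 belongs to a family of similar genes, so reads could have been split between copies. Another gene of that family, Ifitm2, was named after its values were seen. It fell, with a control mean of 739 ± 152 TPM (SD, n = 4), a treated mean of 424 ± 82.2 TPM (SD, n = 3) and a log2 fold change of -0.80 (limma adjusted p = 0.0355), and was at -0.59 (adjusted p = 0.0529) after rescaling. Ifitm1, of the same family and also named after its values were seen, was at -0.79 and not called (adjusted p = 0.052). After rescaling Ifitm1 was at -0.58 (adjusted p = 0.105).

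Among the other antiviral effectors no gene was called. Bst2, or tetherin, holds budding virus at the cell surface. Its TPM was 170, 178, 143 and 126 in control and 119, 128 and 73.0 in treated libraries, giving a log2 fold change of -0.56 (limma adjusted p = 0.116), and -0.35 after rescaling (adjusted p = 0.0944). The groups overlap by 1 library, since treated replicate 2 lies above control replicate 4. Trim30a, a ubiquitin ligase that restrains inflammatory signalling, had the highest estimate of all members. Its TPM was 20.1, 13.1, 28.6 and 17.5 in control and 25.8, 41.8 and 20.9 in treated libraries, for a log2 fold change of 0.54 (95% interval -0.04 to 1.13, limma adjusted p = 0.194). After rescaling it was at 0.76 (interval 0.19 to 1.33, adjusted p = 0.0709). It shares sequence with other Trim30 genes. The GTPases Mx1 and Mx2, which trap viral nucleoproteins, were low, at 5.08 to 12.5 and 2.07 to 6.24 TPM. Rsad2, or viperin, and its neighbour Cmpk2, which together make an antiviral nucleotide, were also low, at 2.06 to 5.11 and 4.59 to 9.87 TPM. The 4 differed by 0.32, -0.28, -0.18 and -0.30, and by 0.53, -0.13, -0.02 and -0.12 after rescaling, all with intervals that include 0.

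The IFIT proteins bind viral RNA that lacks the host cap, and 0 of the 4 genes was called. Ifit3 had 49.9, 47.6, 43.3 and 46.2 TPM in control and 51.1, 47.2 and 26.3 TPM in treated libraries. Treated replicates 1 and 2 lay inside or just above the control range and only the third library was below it. After rescaling that library was at 55.5 TPM beside 55.7 in control replicate 3, and the log2 fold change of Ifit3 was -0.02 (95% interval -0.27 to 0.24). Ifit1 ran from 7.57 to 11.0 TPM over all 7 libraries, for a log2 fold change of -0.13. Ifit2 had 21.3, 12.5, 21.0 and 18.4 TPM in control and 25.3, 26.9 and 14.7 TPM in treated libraries, for a log2 fold change of 0.26 (limma adjusted p = 0.502), and of 0.46 after rescaling (adjusted p = 0.129). Its 2 numbered treated libraries were the highest of the 7. Ifit3b, the close copy of Ifit3, was at 8.32 to 18.4 TPM with a log2 fold change of -0.14, and the division of reads between the pair is uncertain.

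ISG15 is a ubiquitin-like protein that is attached to other proteins. USP18 removes it and also blocks the interferon receptor, and HERC6 is the mouse ligase that attaches it. Isg15 had 58.3, 74.4, 64.8 and 53.3 TPM in control and 50.9, 42.9 and 32.7 TPM in treated libraries. Every treated value was below every control value, giving a log2 fold change of -0.57 (SE 0.21), but the gene was not called (limma adjusted p = 0.0817), nor after rescaling (-0.37, adjusted p = 0.0649). It was called without treated replicate 1 (-0.72, adjusted p = 0.0334) and with array weights (-0.43, adjusted p = 0.0145). Usp18 had 17.9, 20.2, 16.4 and 16.3 TPM in control and 16.5, 14.3 and 8.03 TPM in treated libraries, for a log2 fold change of -0.47 (adjusted p = 0.192), and -0.29 after rescaling (adjusted p = 0.165). Treated replicate 1 lay within the control range. Herc6 was at 0.17 (adjusted p = 0.624) and at 0.38 after rescaling (adjusted p = 0.126), and its 2 numbered treated libraries, at 32.7 and 32.6 TPM, were the highest.

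None of the 3 signalling factors was called. Irf9, the DNA-binding part of the complex, had 38.5, 41.0, 37.2 and 39.3 TPM in control and 43.0, 50.1 and 27.1 TPM in treated libraries, for a log2 fold change of -0.01 (95% interval -0.47 to 0.46), and of 0.20 after rescaling (interval -0.01 to 0.41). The treated libraries lay on both sides of the narrow control range. Stat2 and Irf7, the factor that amplifies interferon production, were at -0.26 and -0.29 (limma adjusted p = 0.405 and 0.472), and at -0.05 and -0.09 after rescaling. Irf7 varied among controls from 22.9 to 49.5 TPM, with the highest value in control replicate 3.

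Of the 6 sensors of nucleic acid 0 was called, with estimates from -0.12 to 0.28. Rigi and Ifih1, helicases that recognise viral RNA, had log2 fold changes of 0.14 and -0.12. Rigi had 22.6, 20.3, 22.8 and 19.6 TPM in control and 26.04, 32.7 and 15.3 TPM in treated libraries, so that its numbered treated libraries lay above all controls and the third below all. After rescaling the third library stood at 32.2 TPM, above the controls at 26.8 to 31.9, and the difference was 0.35 (limma adjusted p = 0.0866). Dhx58, which regulates both helicases, Ddx60, a related helicase, and Eif2ak2, the kinase PKR that stops translation, were at 0.03, 0.07 and 0.04, and at 0.23, 0.27 and 0.25 after rescaling. Zbp1, a sensor of Z-form nucleic acid that can trigger necroptosis, had 53.9, 29.1, 43.7 and 28.8 TPM in control and 39.7, 70.9 and 34.2 TPM in treated libraries, for a log2 fold change of 0.28 (adjusted p = 0.505), and of 0.49 after rescaling (adjusted p = 0.227).

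The PARP9 and DTX3L proteins form a complex that modifies histones, and PARP14 is a related ADP-ribosyltransferase. Dtx3l had 18.8, 17.6, 19.95 and 18.3 TPM in control and 24.1, 31.96 and 16.8 TPM in treated libraries. The numbered treated libraries lay above the controls and the third below, giving a log2 fold change of 0.32 (limma adjusted p = 0.341). After rescaling all 3 treated libraries, at 33.2, 42.7 and 35.3 TPM, lay above the controls at 23.4 to 26.6, and Dtx3l rose by 0.52 (adjusted p = 0.0191). It was called in 4 of 19 alternative settings in all, each time higher. Parp14 was at 0.41 (adjusted p = 0.294) and 0.62 after rescaling (adjusted p = 0.081), and Parp9 at -0.05 and 0.15. T cell identity sums were also highest in treated replicate 2. As deposited, 11 of the 32 members had their highest value there, Dtx3l, Parp14 and Trim30a among them. The part of the cell mix in these values was not tested.

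The last 5 members are induced genes of less defined or mixed function, and 0 was called on the deposited scale. Ifi44 had 14.6, 14.9, 13.8 and 12.4 TPM in control and 11.3, 7.76 and 6.06 TPM in treated libraries. No treated value reached the controls, and the log2 fold change was -0.70 (SE 0.22, limma adjusted p = 0.0551). It was called after rescaling (-0.53, adjusted p = 0.0451) and in 6 of 19 alternative settings in all, each time lower. Rtp4, which helps receptors reach the membrane and limits viral replication, had 73.8, 59.3, 64.4 and 56.5 TPM in control and 46.0, 53.1 and 33.1 TPM in treated libraries. Its groups did not overlap either, at -0.54 (adjusted p = 0.0983) and -0.33 after rescaling (adjusted p = 0.0819). Ifi27l2a, an abundant interferon-induced transcript, ran from 228 to 431 TPM and was at -0.05, and Xaf1, a partner of the apoptosis inhibitor XIAP, was at -0.30. After rescaling they were at 0.16 and -0.09. Ifi35, a leucine zipper protein, was at -0.30 with an interval of -0.75 to 0.15, and at -0.09 after rescaling.

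**Figure D3:**
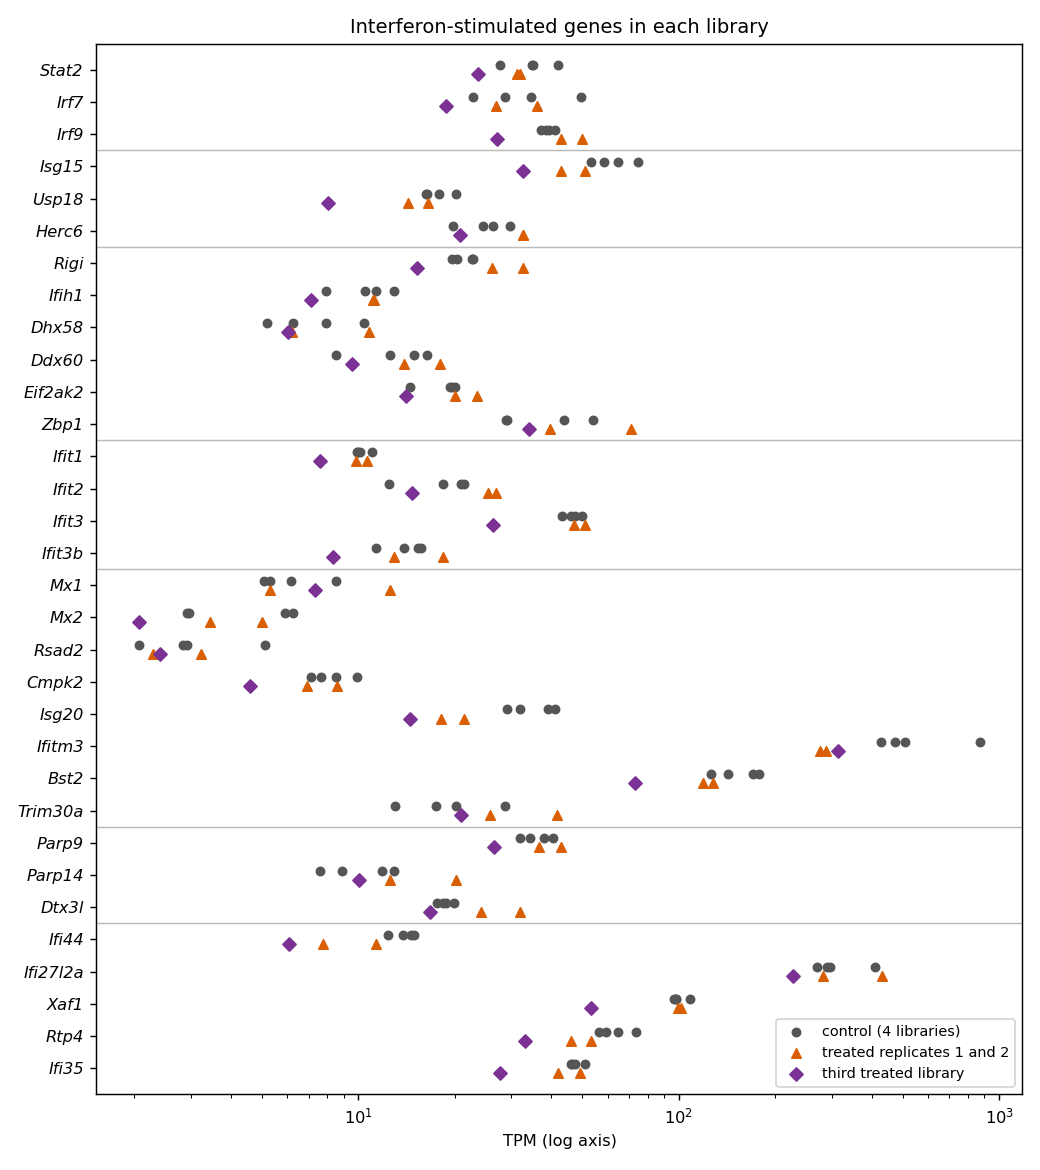
TPM of each member in each library on a log axis, ordered by role, with controls as circles, treated replicates 1 and 2 as triangles and the third treated library as a diamond. The third library is the lowest of the 7 for 22 of the 32 genes, and in Isg20, Ifitm3, Isg15, Ifi44 and Rtp4 all treated libraries lie below all controls.

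The correlation between members depended on the scale. Over the 496 pairs of members the median Pearson correlation across the 7 libraries was 0.48 on the deposited scale, with 87.7% of pairs above 0, and 0.07 after rescaling, with 55.2% above 0. These correlations are over 7 libraries that share the scale of each library and the 2 groups, and are given as a description. On the deposited scale Parp9 and Ifi35 had the highest median correlation with the other members, 0.70 each, and Mx1 the lowest, 0.11. The 13 members with an ISRE core in their window had a median log2 fold change of -0.14 (range -0.90 to 0.54), and the 10 matched members without one had a median of -0.30 (range -0.94 to 0.32).

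The ligands of the pathway were listed at or near 0. Of 20 genes for type I and III interferons, 15 were listed at 0 TPM in every library and the highest value of any was 0.32 TPM, for Ifne in control replicate 4. Ifnb1, the interferon that most cells make first, was listed at 0 in 6 libraries and at 0.14 TPM in control replicate 3. The 11 receptor and JAK-STAT genes had a median of -0.06, with 2 higher and 2 lower at an unadjusted p under 0.05 (limma). Of the 11, 1 fell and 0 rose, against 7.59% and 4.3% of all tested genes. The 1 was Ifngr2, a chain of the interferon gamma receptor, with a control mean of 24.6 ± 3.02 TPM (SD, n = 4) and a treated mean of 13.8 ± 4.75 TPM (SD, n = 3) (log2 fold change -0.84, adjusted p = 0.0307). Ifnar1 and Ifnar2, the type I receptor chains, were at 0.24 and -0.32 (adjusted p = 0.466 and 0.275). After rescaling Ifnar1 rose by 0.45 (adjusted p = 0.0196), and the list counts were 3 higher and 1 lower. The other 2, named after their values were seen, were Ifngr1, the partner chain of Ifngr2, and the kinase gene Jak1. Ifngr1 was at 0.86 (adjusted p = 0.0754) and rose by 1.07 after rescaling (adjusted p = 0.0217), and Jak1 was at 0.71 (adjusted p = 0.0882) and rose by 0.92 (adjusted p = 0.0103).

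Upstream of the ligands, 0 of 14 genes of nucleic acid sensing was called in either direction (limma, 4 lower and 0 higher at an unadjusted p under 0.05, median -0.08, and 0.12 after rescaling with 0 called). The lowest p belonged to Mavs, the mitochondrial adaptor of RIG-I, at -0.51 (adjusted p = 0.092), and Ticam1, the adaptor of TLR3, at -0.55 (adjusted p = 0.12). Of 12 negative regulators 0 was called (limma, 2 lower and 0 higher at an unadjusted p under 0.05, median 0.00). After rescaling the median was 0.19 and 1 rose, Samhd1, an enzyme that depletes nucleotides, named after its values were seen (0.70, limma adjusted p = 0.0391). Those with the smallest p on the deposited scale were Rnaseh2a and Rnaseh2c, subunits of the nuclease that removes RNA from DNA, at -0.52 and -0.45 (adjusted p = 0.0865 and 0.16). Socs1, an inhibitor of JAK kinases, was at -0.05 and between 0.62 and 2.35 TPM.

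Among genes tied to interferon gamma, a product of activated T cells, 2 rose. Ifng itself had 4.17, 2.63, 2.76 and 1.77 TPM in control and 19.4, 43.96 and 17.8 TPM in treated libraries, for a log2 fold change of 2.79 (limma adjusted p = 0.000277). Nlrc5, the activator of MHC class I genes, had 39.3, 19.3, 26.4 and 26.5 TPM in control and 56.2, 124 and 41.8 TPM in treated libraries, for a log2 fold change of 1.26 (adjusted p = 0.02). In both genes every treated library lay above every control, with the highest value in treated replicate 2. These were the 2 of 19 tested genes that rose, with 0 lower, against 4.3% higher and 7.59% lower of all tested genes. The 19 include Ifng, the ligand, so Nlrc5 was the only target that rose on the deposited scale. At an unadjusted p under 0.05 (limma) 5 were higher and 0 lower, and the median was 0.32. After rescaling 4 rose, with a median of 0.53, and the added ones, named after their values were seen, were Psmb9, an immunoproteasome subunit, and Gbp4, a guanylate-binding protein (0.82 and 1.16, adjusted p = 0.0239 for both). Irf1, an early target, was at 0.32 (adjusted p = 0.426), and Cxcl10, a chemokine of both interferon types, at -0.41 (adjusted p = 0.419). Whether this list differs from the 32 members was not tested. T cell identity sums of 705 to 2977 TPM in treated and 144 to 251 TPM in control libraries lie beside these values, and their part was not tested.

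A wider list of 46 interferon-induced genes had log2 fold changes from -1.38 to 1.88, against -0.94 to 0.54 for the 32 members. The wider list holds more genes, and whether it differs from the members was not tested. Of the 46 genes 7 rose, against 4.3% of all tested genes. Another 4 fell, against 7.59%, so the share that fell was near that of all genes. The list median was -0.23, beside -0.24 for all tested genes. The rises with the smallest p were those of Ifit1bl1, a relative of Ifit1, Shisa5, a membrane protein, and Ms4a4c, a tetraspan membrane protein. They were at 1.88, 1.53 and 1.14 (limma adjusted p = 0.00408, 0.00764 and 0.016). Also higher, and named after their values were seen, were Ifi209, Sp100, Sp110 and Ifi203. Their estimates were 1.51, 1.23, 1.04 and 1.03 (adjusted p = 0.0177, 0.018, 0.0354 and 0.0456). After rescaling all of these stayed called (adjusted p = 0.0227, 0.0107, 0.0164 and 0.0326). Oasl1, which dampens Irf7 translation, had 4.96, 6.96, 8.68 and 4.49 TPM in control and 1.67, 2.11 and 1.41 TPM in treated libraries, with no overlap and a log2 fold change of -1.38 (adjusted p = 0.00281). The other 3 that fell were Ifitm2, given above, and Oas1g and Oas2, also named after their values were seen. Oas1g and Oas2, of the family that makes the activator of RNase L, were at -0.97 and -0.84 (adjusted p = 0.0245 and 0.0421). After rescaling they were at -0.81 and -0.67 (adjusted p = 0.0992 and 0.134), and 11 of the list were higher and 1, Oasl1, lower. Oas1a and Oasl2 were at -0.42 and -0.58 (adjusted p = 0.329 and 0.0672).

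**Figure D4:**
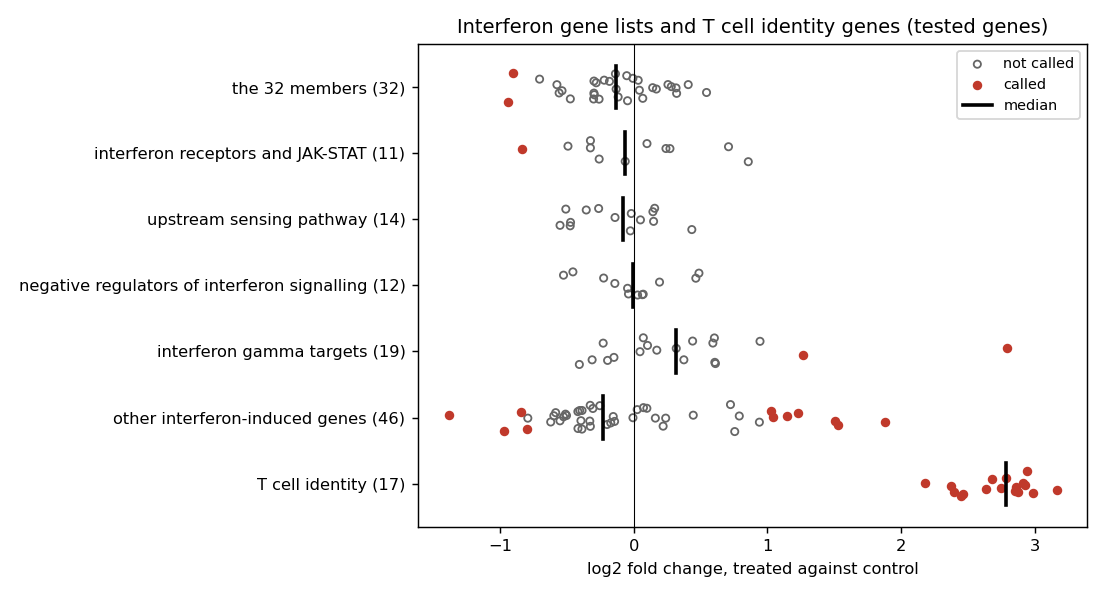
Log2 fold change of each tested gene in 7 lists, with called genes filled and list medians as bars. The 32 members have a median of -0.13 and the 17 T cell identity genes a median of 2.78 in the same libraries.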

How the data were processed

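Messenger RNA was measured in 4 control and 3 treated libraries. The authors deposited 1 table of TPM for 149132 transcripts. Build mm39 and the tools fastp, HISAT2 and StringTie are listed, per the submitters' processing notes, with no roles. How TPM was computed is not stated there. The table carries no read numbers, so depth is unknown. Columns were matched by name, 1 of them only to the treated group, and 0 columns belonged to other samples. The 1001 rows without a symbol held 0.307% to 0.618% of TPM and were left out.

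TPM was summed per symbol. Genes at 1 TPM or more in at least 3 of 7 libraries were tested (14967, all 32 members among them) on log2(TPM + 1) with limma 3.58.1 in R 4.3.3, with an intensity trend and Benjamini-Hochberg adjustment over all tested genes. On that scale the fold changes of low genes are understated. For rescaling, 37 genes named mt- and 5 Gm-named genes above 1% of TPM in some library were removed. The members and lists were chosen with earlier results of these data known. Named beside the members are the 4 called genes of each list with the smallest p, or 2 where none was called, and 10 fixed genes, of which 1 is not reported here. Replicate numbers are shared by name only, so they were not used as pairs. Alternatives changed the pseudocount, filter, scaling, variance model, weights and covariates, and left out each library. One, rescaling without the third treated library, was added after seeing the data.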

Additional observations from a re-analysis of the deposited data

Results flagged for a closer look

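Of the 32 members, 2 had 1 control library far from the other 3, by a limit that chance passes in about 1 group in 20. Eif2ak2 was at 14.5 TPM in control replicate 2, against 19.3 to 20.01 TPM in the other controls. Xaf1 was at 108.42 TPM in control replicate 1, against 96.7 to 98.0 TPM in the other controls.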

How the results depend on the processing

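Isg20 was called lower in 16 of 19 alternatives and Ifitm3 in 9, and neither estimate changed sign. Of the 32 members 21 were called in no setting. With no filter, 0 members fell (limma, 6 at an unadjusted p under 0.05) and 7 genes in all were called, against 1779 as reported. Median-of-ratios scaling gave 1 higher member, Dtx3l, and a median of 0.12. Removing mitochondrial genes and copies gave 1 higher, Dtx3l, and a median of 0.059. Array weights gave 7 higher and 4 lower, a median of 0.053, 6467 called genes and Irf9 at 0.31 (adjusted p = 0.0302). The 7 were Irf9, Rigi, Ifit2, Mx1, Trim30a, Parp14 and Dtx3l, and the 4 were Isg15, Isg20, Ifitm3 and Ifi44. In that setting 43.2% of all tested genes were called. The macrophage covariate gave 0 lower (1 at an unadjusted p under 0.05), a median of 0.016 and 532 called genes. The replicate block over numbers 1 and 2 gave 0 lower (4 at an unadjusted p under 0.05), a median of 0.11 and 638 called genes, and same-numbered libraries deviated from their group means with correlations of -0.02 and -0.09. Rescaling without the third treated library gave 1 higher, 1 lower and a median of 0.074. Leaving out each library gave 1 to 3 lower members, medians from -0.26 (without treated replicate 2) to 0.074 (without the third treated library), and 974 to 3363 called genes. The cause of these shifts was not tested. Between 0 and 9 uncalled members changed sign per setting. The unknown depth sets an unknown floor for Mx1, Mx2, Rsad2 and the ligands.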
